A study of Bos taurus with 45 samples.

Results

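Transcripts of 10 marker genes were followed through sections of the bovine Day 16 conceptus: 3 of the embryonic disc (POU5F1, SOX2 and NANOG) and 7 of the hypoblast (GATA4, GATA6, FOXA2, TTR, AFP, APOA1 and CUBN). They were chosen by symbol, and 8 of the 10 stood among the 16149 genes of the conceptus table; SOX2 and TTR were not analysed here in conceptus tissue. The tissue came from Angus-Holstein heifers. In vivo derived (IVD) conceptuses were made by artificial insemination with 1 Angus bull and cut into sections of 5 by 2 mm, and each section was incubated for 12 h in RPMI medium with dialyzed fetal bovine serum. In co-culture (Endo-IVD Conc conceptus, n = 9 sections of 7 conceptuses, on explants of 6 uteri), the section shared its well with an 8 mm punch of intercaruncular endometrium. In mono-culture (IVD Conc, n = 8 sections, 1 from each of 8 conceptuses), it was cultured alone. The explants gave a further 28 libraries, 15 from co-culture (Endo-IVD Conc endometrium, 11 uteri) and 13 from mono-culture (Endo, 13 uteri). All explants were from heifers that had not been bred, so their endometrium had met no conceptus before the culture. The sources used here do not say where along the conceptus a section was cut. Sections are named by the number of their conceptus and, in co-culture, the number of the uterus (u) that gave the explant.

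By this stage the ruminant conceptus has elongated into a filament. Nearly all of its length is trophoblast, the outer epithelium that secretes interferon tau, lined inside by hypoblast, the extraembryonic endoderm that will line the yolk sac. The embryo itself arises from the epiblast of the embryonic disc, a small patch on the filament, so that a short section may or may not include it. Epiblast cells keep the pluripotency factors POU5F1, NANOG and SOX2. Hypoblast cells are set up by the transcription factors GATA6, GATA4 and SOX17, and their descendants secrete plasma proteins such as apolipoproteins, transthyretin (TTR) and alpha-fetoprotein (AFP) and take up maternal proteins through cubilin (CUBN). In cattle POU5F1 transcript is also made by early trophoblast.

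The total count per section was 58.6 to 92.0 M (mega) in co-culture (median 74.3) and 65.5 to 104 M in mono-culture (median 80.8). The explants had 48.7 to 64.0 M in co-culture and 44.2 to 61.5 M in mono-culture. Every section held trophoblast transcript. The summed level of 27 trophoblast markers was 28000 to 94900 CPM (counts per M counts of the scaled library) in co-cultured and 11500 to 79800 CPM in mono-cultured sections. Not all of the list is specific to trophoblast. The 26 of its genes measured in endometrium summed to 1110 to 2100 CPM in co-cultured and 1000 to 2390 CPM in mono-cultured explants. Markers of endometrial epithelium (9 in the table, of which FOXA2 and SOX17 are also hypoblast genes) summed to 156 to 380 CPM in co-cultured and 110 to 243 CPM in mono-cultured sections, and those of endometrial stroma to 13.0 to 82.9 CPM in co-cultured and 9.86 to 171 CPM in mono-cultured sections. Of 3 erythroid markers, HBA, an alpha globin chain, was more abundant in co-cultured sections (32.5 ± 25.1 CPM, SD, n = 9) than in mono-cultured sections (1.09 ± 0.591 CPM, SD, n = 8; log2 fold change 4.89, SE 0.74, edgeR adjusted p = 0.00654), and HBM, a mu globin chain, passed as well (adjusted p = 0.00965, and 0.0524 with the conceptus as a replicate block). ALAS2, the remaining erythroid marker measured of 11 listed, was not called. The source of the globin transcript, and the part of endometrial cells in the levels below, were not tested.

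POU5F1 (ENSBTAG00000021111), the POU factor that upholds pluripotency, stood far above the other sections in 2 libraries. In co-cultured sections it had a median of 2.51 CPM, from 1.09 CPM in conceptus 71 (u70) to 44.0 CPM in conceptus 22 (u19). In mono-cultured sections the median was 4.34 CPM, from 0.667 CPM in conceptus 71 to 92.2 CPM in conceptus 26. The groups overlapped throughout, and no section was at 0. The section of conceptus 26 was at 36.8 times the median of the 17 sections and that of conceptus 22 (u19) at 17.5 times. Co-cultured conceptus 50 (u38), at 15.4 CPM, and mono-cultured conceptus 5, at 10.5 CPM, were also at 4 times the median or more. Mono-cultured conceptus 22 lay just under that mark, at 8.91 CPM.

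NANOG (ENSBTAG00000020916), a homeobox factor of the epiblast, was nearly confined to the same pair of sections. Co-cultured conceptus 22 (u19) had 271 counts (3.17 CPM), and the other 8 co-cultured sections had 0 to 7 counts, with 2 of them at 0. Mono-cultured conceptus 26 had 970 counts (10.4 CPM), and the other 7 mono-cultured sections had 2 to 17. These 2 sections were thus at 42.6 and 140 times the median of all sections, while the other 15 lay between 0 and 0.169 CPM. The other sections of the same conceptuses were low: conceptus 22 had 0.116 CPM in mono-culture, and conceptus 26 had 0 and 0.0786 CPM in co-culture. With the 2 sections left out, the relation of NANOG to POU5F1 over sections fell to r = 0.05, against 0.71 over all 17 (Spearman's rho 0.30), as a description of sections from 8 conceptuses, 7 of which gave 2 or 3.

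AFP (ENSBTAG00000017131), the fetal counterpart of albumin made by visceral endoderm and yolk sac, followed them. Of 9 co-cultured sections 6 had no count; the others were conceptus 22 (u19) with 280 counts (3.28 CPM), conceptus 26 (u39) with 42 (0.550 CPM) and conceptus 50 (u38) with 22 (0.292 CPM). Of 8 mono-cultured sections 5 had no count, conceptus 26 had 7490 counts (80.5 CPM), and conceptuses 50 and 5 had 14 and 2. AFP was thus seen in sections of 4 conceptuses, and within each of conceptus 22 and conceptus 26 another section had none.

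CUBN (ENSBTAG00000005072), the endocytic receptor that takes up apolipoprotein A-I and vitamin carriers, was measured at 4.33 CPM in co-cultured conceptus 22 (u19) and at 4.71 CPM in mono-cultured conceptus 26. The next sections were both of conceptus 50, at 0.944 CPM in co-culture and 0.655 CPM in mono-culture, and then conceptus 26 (u39), at 0.262 CPM in co-culture, and conceptus 5, at 0.206 CPM in mono-culture. Both sections of conceptus 71 were at 0, and the other 9 lay between 0.0214 and 0.106 CPM. Both sections of conceptus 50 thus held CUBN and AFP, at 0.0266 CPM of NANOG in co-culture and 0.169 CPM in mono-culture. Over the 17 sections CUBN was close to POU5F1 (r = 0.91) and to AFP (r = 0.90).

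**Figure D1:**
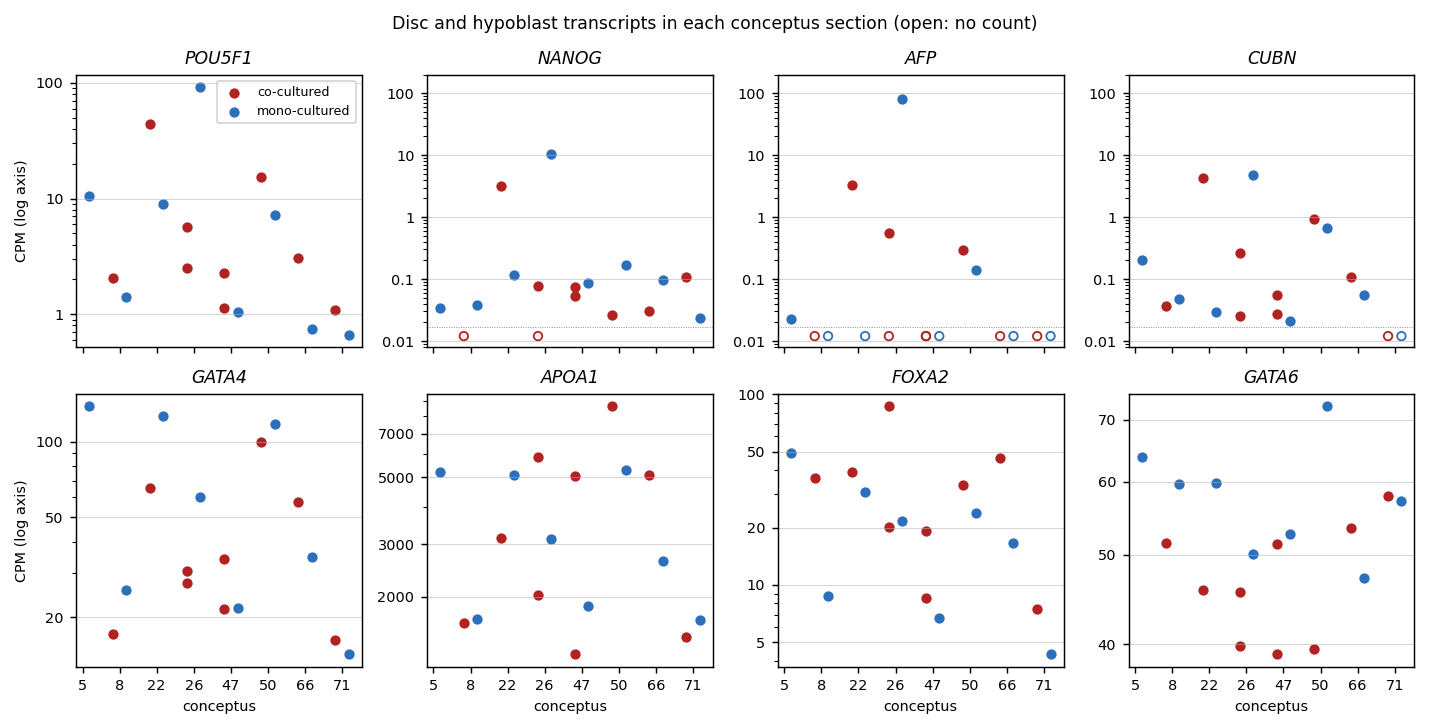
Level of each of the 8 members in every conceptus section, in CPM on log axes that differ between panels, by conceptus number; red points are co-cultured and blue points mono-cultured sections, and open points under the dotted line had no count. NANOG, AFP and CUBN peak in co-cultured conceptus 22 (3.17, 3.28 and 4.33 CPM) and mono-cultured conceptus 26 (10.4, 80.5 and 4.71 CPM), while GATA6 spans only 39 to 72.4 CPM.

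The same pair of sections led other genes of the embryo proper. The pair was picked by its levels of the members, so its lead in 4 of the 8 (POU5F1, NANOG, AFP and CUBN) was fixed beforehand. For 6 of 18 further disc genes and 3 of 10 genes of primitive streak and mesoderm, the 2 highest of all sections were co-cultured conceptus 22 (u19) and mono-cultured conceptus 26. This held for 428 of the 16149 genes of the table (2.65%). It held for none of 14 further hypoblast factors, 20 genes of hypoblast uptake and matrix and 27 trophoblast genes, for 1 of 18 genes of hypoblast secretion, for 2 of 6 leukocyte genes and for 1 of 5 endothelial genes. The genes below were named after their values were seen. EOMES, a T-box factor of the primitive streak, had 3.34 CPM in co-cultured conceptus 22 and 15.1 CPM in mono-cultured conceptus 26, and at most 0.173 CPM in any other section. PRDM14, which guards pluripotency, had 1.19 and 2.01 CPM in these 2 sections and at most 0.289 CPM elsewhere. NODAL, the ligand that patterns the epiblast, had 0.539 and 2.1 CPM against at most 0.458 CPM. VIM, the intermediate filament of mesenchymal cells, had 23.3 and 38.5 CPM against at most 2.15 CPM. TF, which encodes the plasma iron carrier transferrin, was the gene of hypoblast secretion, at 149 and 185 CPM against at most 42.2 CPM. By the rule for nearest genes, POU5F1 was most like FZD2, a Wnt receptor, FOXH1, the partner of SMADs in NODAL signalling, APLNR, the apelin receptor of early mesoderm, BEX2 and PDZD4 (r = 0.90 to 0.91 over 17 sections, among 10725 genes). For these 5 genes r was still 0.77 to 0.94 without the 2 sections farthest from the median.

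GATA4 (ENSBTAG00000005425), a zinc finger factor of primitive endoderm, spread over the sections in another order. In co-culture it had 100 CPM in conceptus 50 (u38), 65.4 in conceptus 22 (u19), 57.5 in conceptus 66 (u38), 34.2 and 21.7 in conceptus 47 (u54 and u19), 30.6 and 27.4 in conceptus 26 (u39 and u14), 17.2 in conceptus 8 (u14) and 16.3 in conceptus 71 (u70). In mono-culture it had 138 CPM in conceptus 5, 127 in conceptus 22, 117 in conceptus 50, 60 in conceptus 26, 34.7 in conceptus 66, 25.8 in conceptus 8, 21.8 in conceptus 47 and 14.3 in conceptus 71. The groups overlapped, and no section lacked GATA4. Conceptuses 5, 22 and 50 were high and conceptuses 8, 47 and 71 low. The 2 sections that led NANOG were in the fifth and sixth place for GATA4 (NANOG against GATA4, r = 0.30).

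Most other hypoblast genes ran with GATA4. Correlations with GATA4 above 0.7 were found for 9 of 13 tested hypoblast factors, 9 of 18 genes of secretion and 13 of 20 genes of uptake and matrix, and below -0.7 for 17 of 26 trophoblast genes. Of all genes tested, 10.6% lay above 0.7 and 10.8% below -0.7. Among the nearest genes were TACC2, CMTM3 and MAGED2 (r = 0.97 each). HNF4A, a nuclear receptor of visceral endoderm, ranged from 14.3 to 189 CPM in co-cultured and from 21.6 to 177 CPM in mono-cultured sections and had r = 0.92 with GATA4. FST, the activin antagonist follistatin (r = 0.92), ranged from 12.1 to 530 CPM in co-culture and from 16.3 to 419 CPM in mono-culture. On the list of uptake and matrix, 2 of 20 genes lay below -0.7, DAB2, an endocytic adaptor (r = -0.83), and S100G, a calcium-binding protein (r = -0.77), and LRP2, the partner receptor of cubilin, had r = -0.60 (all 3 named after their values were seen). These are correlations over 17 sections of 8 conceptuses in relative units, in which a larger share of one tissue lowers the share of the other.

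GATA2, a GATA factor of trophoblast, showed the counterpart. It was lowest in mono-cultured conceptus 5 (10.3 CPM) and next lowest in co-cultured conceptus 50 (27.7 CPM) and mono-cultured conceptus 22 (41.9 CPM), all high in GATA4. The highest co-cultured section had 553 CPM (conceptus 71) and the highest mono-cultured section 385 CPM (conceptus 71). GATA2 had r = -0.89 with GATA4, and PAG11, a pregnancy-associated glycoprotein, r = -0.90. Not all of the trophoblast list ran this way. ETS2 (r = 0.59), TEAD4 (0.18) and KRT19 (0.14), named after their values were seen, were positive with GATA4. PAG11 had 491 CPM in co-cultured conceptus 50 and 370 CPM in mono-cultured conceptus 5, and up to 17200 CPM in co-cultured conceptus 47. IFNT, interferon tau, had 35.0 CPM in co-cultured conceptus 50 and 6.77 CPM in mono-cultured conceptus 5, and up to 1090 CPM in the other co-cultured and 1630 CPM in the other mono-cultured sections. IFNT and PAG11 have near-identical copies, so their separate values are uncertain. In such bulk sections fewer cells of a type and less RNA per cell cannot be told apart.

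**Figure D2:**
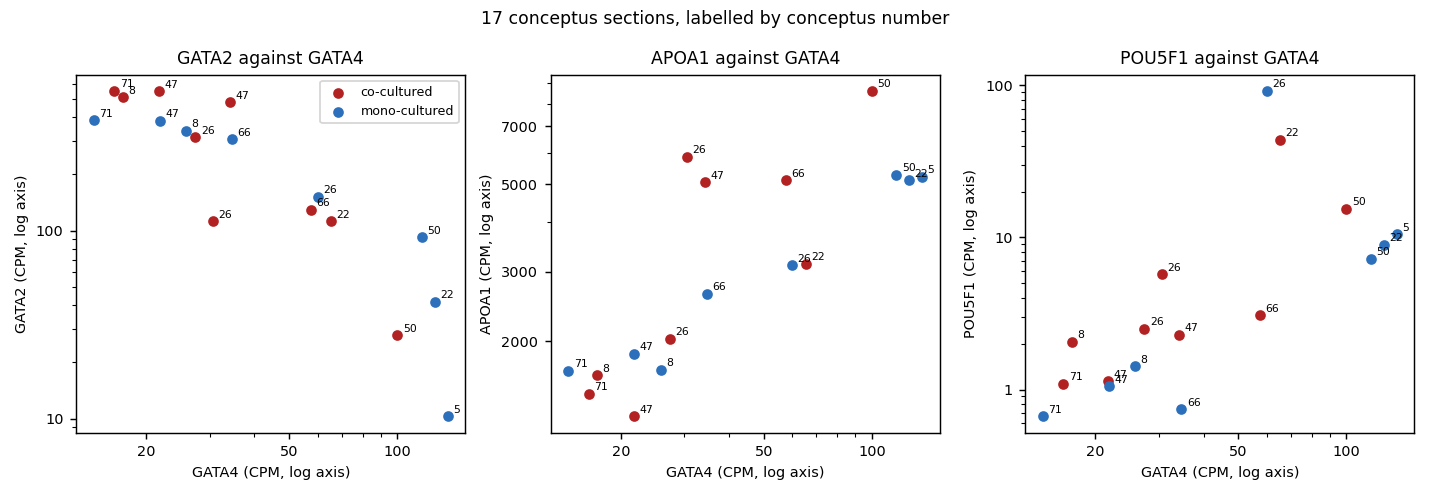
GATA2 (left), APOA1 (middle) and POU5F1 (right) against GATA4 in the 17 conceptus sections, in CPM on log axes, with conceptus numbers; red points are co-cultured and blue points mono-cultured. GATA2 falls as GATA4 increases (r = -0.89), APOA1 increases with it (r = 0.81), and for POU5F1 the sections of conceptus 22 in co-culture and conceptus 26 in mono-culture lie above the others.

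APOA1 (ENSBTAG00000002258), the main protein of high density lipoprotein, was counted in every section. Co-cultured sections had a median of 3140 CPM, from 1290 CPM in conceptus 47 (u19) to 8620 CPM in conceptus 50 (u38). Mono-cultured sections had a median of 2870 CPM, from 1680 CPM in conceptus 71 to 5280 CPM in conceptus 50. The ranges overlapped, with the mono-cultured within the co-cultured one. APOA1 followed GATA4 (r = 0.81, and 0.98 within mono-culture) and FOXA2 (r = 0.73). It was nearest to NENF, APOE, the apolipoprotein E gene, IQCK, RBP4, the plasma carrier of retinol, and IGFBP7 (r = 0.92 to 0.97).

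FOXA2 (ENSBTAG00000012407), a forkhead factor of endoderm and of uterine glands, had yet another order. Co-cultured sections had a median of 33.6 CPM, from 7.52 CPM in conceptus 71 to 86.2 CPM in conceptus 26 (u39). Mono-cultured sections had a median of 19.2 CPM, from 4.34 CPM in conceptus 71 to 49.1 CPM in conceptus 5. The groups overlapped, and conceptus 71 was lowest in both. FOXA2 had r = 0.61 with GATA4 over all sections, 0.49 within co-culture and 0.96 within mono-culture. Its nearest genes were HIF1A, the oxygen-regulated subunit of hypoxia-inducible factor, BNIP2, RASSF1, TSPAN13 and PLPP1 (r = 0.96 to 0.98), none of them a member or on a list here.

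GATA6 (ENSBTAG00000005734), the earliest factor of primitive endoderm in the mouse, hardly varied. Co-cultured sections had 39 to 57.9 CPM (median 45.8) and mono-cultured sections 47.2 to 72.4 CPM (median 58.5). The highest section was thus 1.48 times the lowest in co-culture and 1.53 times in mono-culture, against 6.13 and 9.67 times for GATA4. GATA6 was unlike GATA4 (r = 0.18) and FOXA2 (r = -0.28), and no gene of any hypoblast, disc or trophoblast list passed r = 0.7 with it in either direction (1.02% of all genes lay above). Its nearest genes were RRAGC, NRDE2, ATF7IP, the acetyltransferase gene EP300 and EPC1 (r = 0.83 to 0.88).

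**Figure D3:**
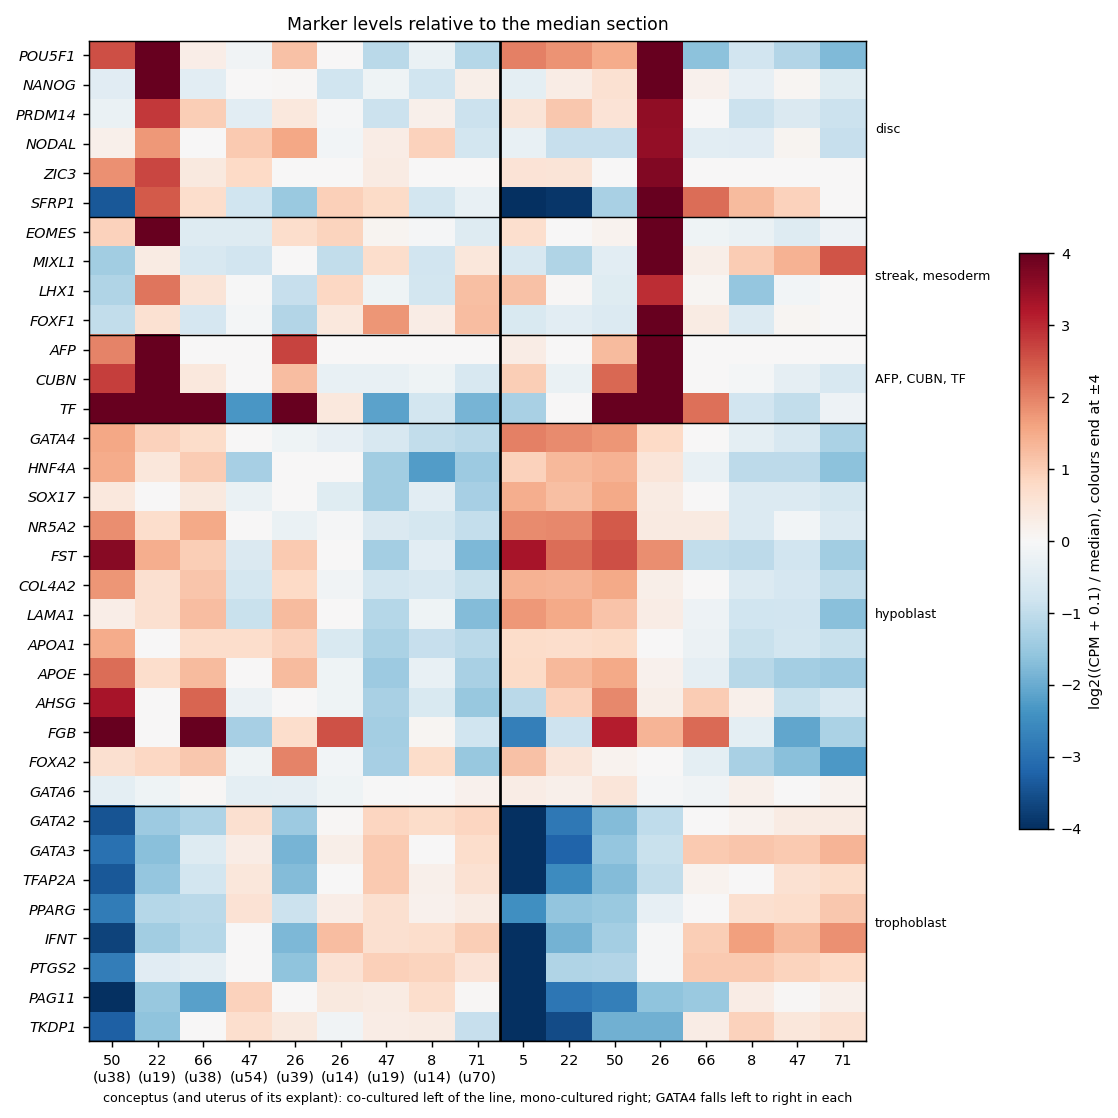
Members and companion genes (rows) in the 17 sections (columns), coloured by the log2 ratio of CPM + 0.1 to the median section, with co-cultured sections left of the black line and mono-cultured right of it, each ordered by falling GATA4. The disc block is dark red in co-cultured conceptus 22 and mono-cultured conceptus 26, and GATA6 stays pale throughout. Most hypoblast genes fade from left to right in each group while trophoblast genes do the opposite. FGB and AHSG follow GATA4 less in mono-culture (r = 0.16 and 0.39), and FOXA2 less in co-culture (r = 0.49).

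The first principal component of conceptus tissue, over the 1000 most variable genes, followed the same axis. It held 44.4% of the variance and ran with GATA4 (r = 0.91), APOA1 (r = 0.83), FOXA2 (r = 0.78) and POU5F1 (r = 0.74), and against GATA2 (r = -0.95) and GATA3 (r = -0.91), another GATA factor of trophoblast. NANOG (r = 0.20) and GATA6 (r = 0.07) had little part in it. The next components held 12.0% and 11.7%.

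Whether sections of 1 conceptus were more alike than sections of different conceptuses was tested with terms for culture and conceptus. Of the 5 members that passed the filter on low counts (POU5F1, GATA4, GATA6, FOXA2 and APOA1), 3 differed between conceptuses in edgeR's quasi-likelihood F test, beside 24.6% of all 14746 genes tested. These were GATA4 (adjusted p = 0.00438), FOXA2 (0.0222) and POU5F1 (0.0425). APOA1 (adjusted p = 0.152) and GATA6 (0.882) did not pass. Mean levels of GATA4 ran, on the log2 scale, from 3.93 in conceptus 71 to 7.11 in conceptus 5, which gave 1 section only. The call of GATA4 held with each of the 7 conceptuses of 2 or more sections left out in turn (adjusted p from 0.00221 to 0.0231). Conceptus 5 entered the test but was not left out, so the part of its high level in this call was not tested. That of FOXA2 was lost without conceptus 47 (0.0824) or 71 (0.106) and with no term for culture (0.153). That of POU5F1 was lost without conceptus 8, 22, 47, 50, 66 or 71 (0.0541 to 0.148), but had an adjusted p of 0.00414 when only the 2 sections highest in it were left out, a choice made after seeing the data. With no filter, NANOG (adjusted p = 0.0831), CUBN (0.0824) and AFP (0.181), the members below the filter, did not pass.

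Companion genes of the hypoblast differed between conceptuses as well, at 10 of 13 factors, 17 of 18 genes of secretion and 17 of 20 of uptake and matrix. Trophoblast genes did so at 20 of 26. Of the disc genes 5 of 13 passed, and of the genes of streak and mesoderm 2 of 8. Beside the 24.6% of all genes, these are counts on lists whose members run together, and genes of a list are not independent.

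The design's comparison asked which members differed between co-cultured and mono-cultured sections. None of the 5 tested members was called in edgeR's quasi-likelihood test at an adjusted p of at most 0.05, beside 7.24% of all genes (530 more and 538 less abundant of 14746). At an unadjusted p under 0.05 there was 1 member, GATA6, beside 25.4% of all genes, and DESeq2 called 1, again GATA6. GATA6 averaged 47.1 ± 6.85 CPM in co-cultured sections (SD, n = 9) and 57.8 ± 8.08 CPM in mono-cultured sections (SD, n = 8), and the log2 fold change was -0.30 (SE 0.11, edgeR adjusted p = 0.101). With DESeq2 its log2 fold change was -0.29 (adjusted p = 0.0481). Of 9 pairs of a co-cultured section with the mono-cultured section of its own conceptus, GATA6 was higher in co-culture in 2; conceptuses 26 and 47 gave 2 pairs each, which share a mono-cultured section.

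FOXA2 averaged 33.0 ± 24.1 CPM in co-cultured sections (SD, n = 9) and 20.2 ± 14.8 CPM in mono-cultured sections (SD, n = 8), and the log2 fold change was 0.71 (SE 0.51, edgeR adjusted p = 0.413). The co-cultured section was higher in 8 of these 9 pairs and 7 of 7 conceptuses, with a median log2 ratio of 0.79 and a range from -0.10 (conceptus 26, u14) to 2.05 (conceptus 8). With the conceptus as a replicate block the log2 fold change was 1.08 (SE 0.31, adjusted p = 0.0622). It passed when the pairs of co-cultured sections of conceptuses 26 and 47 were summed under that block (1.04, SE 0.19, adjusted p = 0.0146) and with 1 factor of unwanted variation (0.84, adjusted p = 0.0295). With the level of the other hypoblast members as a covariate it was 1.25 (SE 0.40, adjusted p = 0.0566).

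The remaining members varied more within than between the cultures. GATA4 averaged 41.2 ± 27.9 CPM in co-cultured and 67.3 ± 51.7 CPM in mono-cultured sections (log2 fold change -0.71, SE 0.49, edgeR adjusted p = 0.389). It was higher in co-culture in 3 of 9 pairs (median log2 ratio -0.23). APOA1 averaged 3800 ± 2520 CPM in co-cultured and 3320 ± 1630 CPM in mono-cultured sections (log2 fold change 0.19, SE 0.40, edgeR adjusted p = 0.816), and was higher in 4 of 9 pairs.

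For POU5F1 even the direction differed between fits. It averaged 8.58 ± 14.0 CPM in co-cultured and 15.3 ± 31.3 CPM in mono-cultured sections (log2 fold change -0.84, SE 1.02, edgeR adjusted p = 0.657). Yet it was higher in the co-cultured section in 7 of 9 pairs and 6 of 7 conceptuses, with log2 ratios from 0.11 to 2.30. The exceptions were both pairs of conceptus 26 (-5.19 and -4), whose mono-cultured section held the NANOG and EOMES transcript. The log2 fold change was 0.26 with the conceptus as a replicate block (adjusted p = 0.853), 0.99 with DESeq2, 1.18 without conceptus 26 and -0.07 without the 2 sections highest in POU5F1, an alternative chosen after seeing the data. None of these passed the test. NANOG (log2 fold change -1.78, SE 1.44, adjusted p = 0.494), AFP (-4.43, 2.08, 0.204) and CUBN (-0.14, 1.33, 0.966) were tested by edgeR with no filter only.

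**Figure D4:**
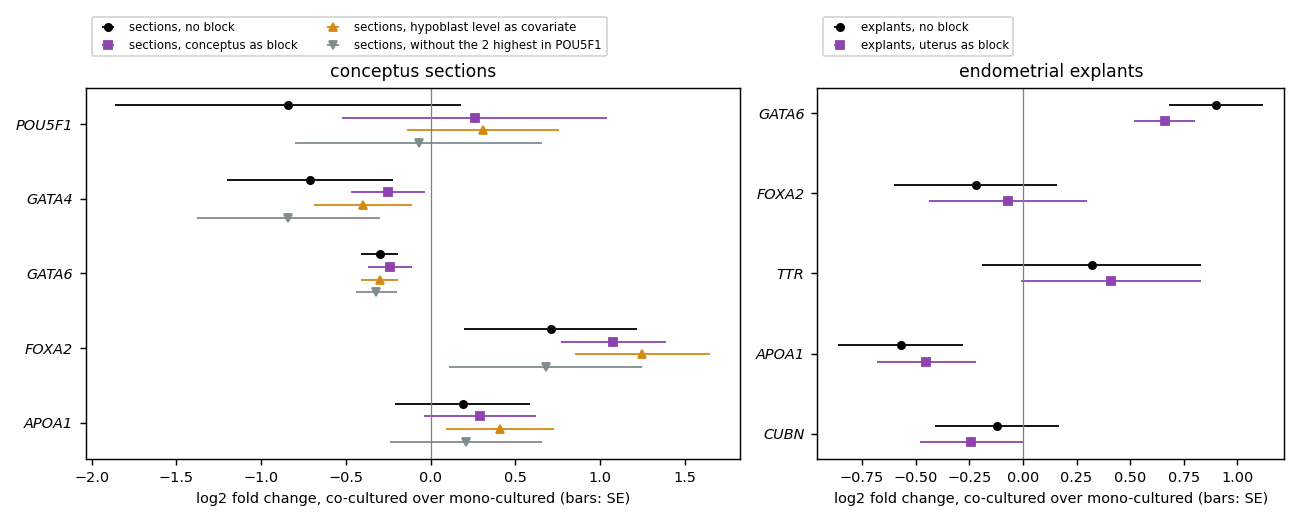
Log2 fold changes (co-cultured over mono-cultured) of the tested members with SE bars, in conceptus sections (left) and endometrial explants (right), under the fits named in the legends. POU5F1 changes sign between fits (-0.84 with no block, 0.26 with the conceptus as a block), FOXA2 lies above 0 in each fit of sections, and GATA6 lies below 0 in sections (-0.30) and above 0 in explants (0.90).

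The number of genes called in this comparison was higher with a term for hypoblast level and within 1.5 times with one for disc level. With the level of the hypoblast members as a covariate, 1020 genes were more and 982 less abundant in co-culture, and 1067 of these 2002 were among the 1068 called without it. With the level of the disc members as a covariate the numbers were 511 and 524 (932 shared). Leaving out the 2 sections highest in POU5F1 left 171 and 183 (351 shared), from fewer sections. With the conceptus as a replicate block, which takes up what is common to sections of 1 conceptus, 334 were more and 319 less abundant (469 shared), and with the hypoblast level added to that block, a fit chosen after seeing the data, 392 and 412 (515 shared). Left out in turn, conceptuses 26, 8, 71, 47, 66, 22, 5 and 50 left 96, 177, 211, 299, 498, 509, 515 and 1282 called genes. The mean hypoblast score, the average of scaled log2 CPM of the 6 measured hypoblast members, was -0.08 ± 0.60 in co-cultured sections (SD, n = 9) and 0.09 ± 0.77 in mono-cultured sections (SD, n = 8). It thus varied among sections of 1 culture far more than between the cultures. The score, used as the hypoblast covariate, includes AFP and CUBN, which peaked in the 2 sections that led NANOG, and GATA6, which hardly varied. Mono-cultured conceptus 26 scored 0.93 and conceptus 5 scored 0.81, at 60 and 138 CPM of GATA4. The fits with this covariate therefore do not adjust for hypoblast alone.

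None of the companion lists of disc, streak, hypoblast and trophoblast genes held a called gene in this comparison, at 0 of 13 disc genes (median log2 fold change -0.31), 0 of 8 of streak and mesoderm (-0.31), 0 of 13 hypoblast factors (-0.35), 0 of 18 of secretion (0.44), 0 of 20 of uptake and matrix (0.08) and 0 of 26 of trophoblast (-0.24) in edgeR, beside a median of 0.01 over all genes. Of all genes 7.24% were called. At an unadjusted p under 0.05 there were 1, 1, 1, 0, 0 and 4 genes, beside 25.4% of all genes. DESeq2 called 1 disc gene and 1 of streak and mesoderm as less abundant and 2 of trophoblast as more abundant, beside 1165 more and 1030 less abundant genes. With the replicate block 1 gene of secretion and 1 of trophoblast were more abundant. With the hypoblast covariate 1 of secretion, 2 of uptake and matrix and 2 of trophoblast were more abundant. The disc genes of highest level were CDH2, N-cadherin, with 58.7 ± 39 CPM in co-cultured and 112 ± 88.9 CPM in mono-cultured sections (log2 fold change -0.94, adjusted p = 0.257), and LIN28A, an RNA-binding protein of early cells (0.36, 0.379). For streak and mesoderm these were PDGFRA, a growth factor receptor also of endoderm (-0.42, adjusted p = 0.709), and KDR, the receptor of vascular endothelial growth factor (0.24, 0.938). Among the hypoblast factors HNF4A was at a log2 fold change of -0.31 (adjusted p = 0.774). For secretion they were the fetuins AHSG, with 3780 ± 5410 CPM in co-cultured and 2500 ± 1900 CPM in mono-cultured sections (0.60, adjusted p = 0.629), and FETUB (0.74, 0.391; 0.96 and 0.0344 with the replicate block). For the matrix they were FN1, fibronectin (0.11, adjusted p = 0.926), and COL4A1, a collagen of basement membrane (0.02, 0.982).

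The explants gave the level of the members in tissue without a conceptus. AFP had no count in any of the 28 explants, and NANOG had 2 counts in 1 co-cultured explant and none elsewhere. POU5F1 had at most 10 counts in co-cultured explants (6 of 15 at 0) and at most 6 in mono-cultured explants (9 of 13 at 0), and GATA4 had at most 6 counts in co-cultured and 4 in mono-cultured explants. These 4 genes were under the filter. The explant that lay with co-cultured conceptus 22 (u19), the section with 280 counts of AFP and 271 of NANOG, had no count of either, which allows up to 0.0558 CPM (3 counts, counting error only). APOA1 had 3.97 to 13.0 CPM in the explants cultured with these 9 sections, within the range of mono-cultured explants (2.76 to 21.6 CPM).

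GATA6 was the member that was more abundant in co-cultured explants, 1 of 5 tested, beside 7.13% of all 16443 genes tested (819 more and 353 less abundant). Co-cultured explants had 5.48 to 16.8 CPM (median 11.6) and mono-cultured explants 2.06 to 9.25 CPM (median 6.40). Of the co-cultured explants 9 of 15 lay above the highest mono-cultured explant, and the others overlapped with it. Its mean was 11.0 ± 4.12 CPM in co-cultured (SD, n = 15) and 5.87 ± 2.28 CPM in mono-cultured explants (SD, n = 13), and the log2 fold change was 0.90 (SE 0.22, edgeR adjusted p = 0.00818). The co-cultured explants exceeded the mono-cultured explant of their uterus in 11 of 11 uteri (median log2 ratio 0.59) (taken as a mean where a uterus gave 2). GATA6 kept its call in each of 18 alternatives (adjusted p from 0.00159 to 0.0331), at log2 fold changes from 0.66 with the uterus as a replicate block to 1.04 without uteri 38 and 69. Those uteri gave the co-cultured explants with the most smooth muscle transcript and were left out after seeing the data. The summed level of 8 smooth muscle markers was 486 to 9350 CPM in co-cultured and 277 to 1770 CPM in mono-cultured explants, with 3 of the 8 called as more abundant, and that of 8 endothelial markers 1080 to 2690 CPM in co-cultured and 1190 to 3420 CPM in mono-cultured explants, with 2 called as less abundant (PECAM1 and EMCN). Their part in the level of GATA6 was not tested.

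The other tested members did not pass in explants. FOXA2, here a marker of glands, had 2.19 to 19.5 CPM in co-cultured and 0.792 to 26.2 CPM in mono-cultured explants (log2 fold change -0.22, SE 0.38, edgeR adjusted p = 0.822). TTR (ENSBTAG00000010991), the carrier of thyroid hormone and retinol-binding protein, had 0 to 64 counts in co-cultured and 0 to 56 counts in mono-cultured explants (0.32, 0.51, 0.801). APOA1 averaged 5.65 ± 2.80 CPM (SD, n = 15) in co-cultured and 8.37 ± 5.93 CPM (SD, n = 13) in mono-cultured explants (-0.57, 0.29, 0.288). CUBN averaged 0.471 ± 0.249 CPM in co-cultured and 0.513 ± 0.173 CPM in mono-cultured explants (-0.12, 0.29, 0.880). Of the companion genes, 0 of 11 of the disc, 0 of 8 of streak and mesoderm, 0 of 10 hypoblast factors and 0 of 9 of secretion were called in edgeR, beside 7.13% of all genes. At an unadjusted p under 0.05 there were 1, 0, 0 and 1, beside 20.1% of all genes, and DESeq2 called none. Of the 20 genes of uptake and matrix, edgeR called 1 as more and 1 as less abundant, again beside 7.13% of all genes. RSPO3, an enhancer of Wnt signalling, was more abundant, with 7.58 ± 10.2 CPM in co-cultured and 1.61 ± 1.08 CPM in mono-cultured explants (2.23, SE 0.58, adjusted p = 0.0136). LAMC1, a laminin chain, was less abundant (-0.40, SE 0.11, adjusted p = 0.0201). Of 13 tested trophoblast genes, ETS2 (log2 fold change 0.48) and TEAD4 (0.56), which the mono-cultured endometrium also expressed, were more abundant.

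**Figure D5:**
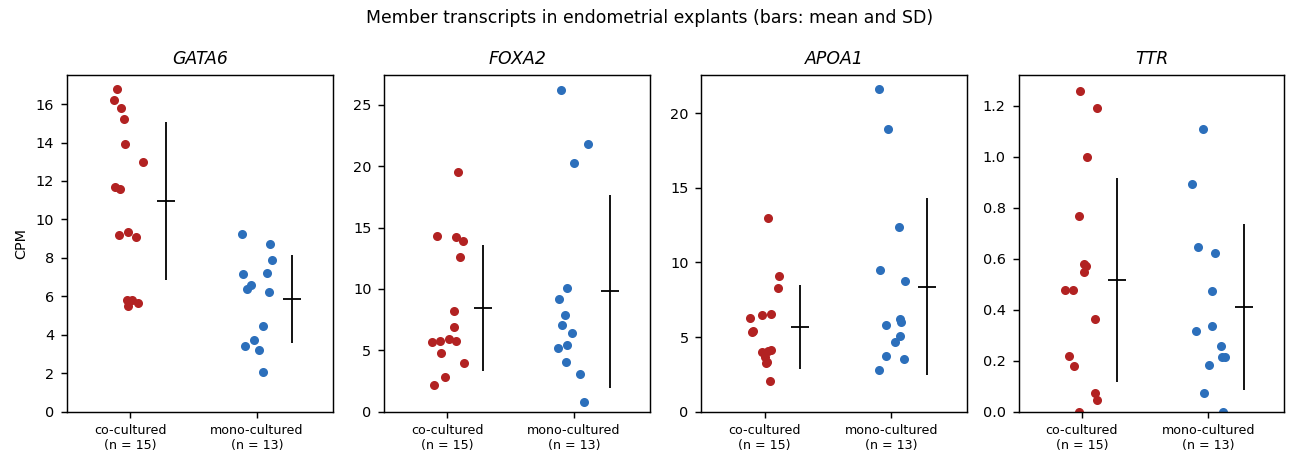
GATA6, FOXA2, APOA1 and TTR in endometrial explants, in CPM on linear axes from 0, with co-cultured explants (red, n = 15) left of mono-cultured explants (blue, n = 13); each point is an explant, and bars give mean and SD. GATA6 averages 11.0 CPM in co-cultured and 5.87 CPM in mono-cultured explants, while the groups of the other genes overlap over most of their range.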

How the data were processed

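Raw counts of reads per gene were used as the authors deposited them, for 17 conceptus and 28 endometrial libraries. Per their notes, the authors used Trimmomatic, HISAT2 (conceptus) or STAR (endometrium) on ARS-UCD1.2, and featureCounts. Their versions, strand setting and the row filter of the conceptus table are not stated in the sources used here. Because of the different aligners, levels were not tested across tissues.

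Each tissue was analysed alone in R 4.3.3 with edgeR 4.0.16: filter by group (10 counts at the median library size, 15 in total), TMM scaling, and robust quasi-likelihood tests of co-culture over mono-culture, or of all conceptus terms beside culture. A gene was called when its p-value, adjusted over all genes tested by Benjamini-Hochberg, was 0.05 or less (14746 and 16443). Standard errors follow from the F statistic. CPM uses TMM-scaled totals, and correlations and components use log2 CPM with a prior count of 2. Calls were checked on simulated counts, drawn for each library independently and with the same dispersion for all genes. That check does not cover the sharing of a conceptus or uterus between libraries. Alternatives were RLE scaling, DESeq2 1.42.0, no filter, replicate blocks, 1 factor of unwanted variation (own implementation after RUVr), marker scores as covariates and leaving out each conceptus or uterus.

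Sections of 1 conceptus and explants of 1 uterus, numbered in the library titles, were paired: with group means removed, 9 of 9 conceptus pairs (median r 0.497) and 15 of 15 endometrial pairs (0.349) correlated above 0.1. The tests take libraries as independent, so p-values without the block ignore this sharing.

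The members and the gene lists were chosen with earlier results of these data known. Named are all members, the 5 genes nearest each tested member (with a symbol and a mean log2 CPM of 1 or more), and, of each companion list with no called gene, the 2 of highest mean CPM. FST, GATA2, GATA3, PAG11 and IFNT were named outside this rule, as were the genes marked as named after their values were seen. A few genes that this rule names are not reported here. Intervals and floors cover counting error only. No sequences are shown, since no sequence table was used.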

Additional observations from a re-analysis of the deposited data

Results flagged for a closer look

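In 9 of 16 groups of sections (8 genes in both cultures), covering 5 genes, 1 section stood apart from the rest of its group by Dixon's criterion on CPM. By chance about 1 of 20 groups meets it, but only where values are normally distributed. These CPM were skewed, and AFP had no count in most sections. The 9 of 16 therefore cannot be set against that rate. Co-cultured conceptus 22 (u19) stood apart in POU5F1 (44.0 CPM, the next section at 15.4), NANOG (3.17 CPM, next 0.106), AFP (3.28 CPM, next 0.550) and CUBN (4.33 CPM, next 0.944). Mono-cultured conceptus 26 stood apart in the same 4 genes: POU5F1 (92.2 CPM, next 10.5), NANOG (10.4 CPM, next 0.169), AFP (80.5 CPM, next 0.139) and CUBN (4.71 CPM, next 0.655). Co-cultured conceptus 26 (u39) stood apart in FOXA2 alone (86.2 CPM, next 46.2). The 4 genes share their sections, so these are not separate pieces of evidence.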

How the results depend on the processing

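Over 26 results and 411 alternatives, 348 kept direction and side of the threshold, or a count within 1.5 times. Without a block, 530 conceptus genes were more and 538 less abundant in co-culture. The numbers were 334 and 319 with the conceptus as a replicate block, 1125 and 1060 with sections summed under that block, 1165 and 1030 with DESeq2, 1520 and 1389 with 1 RUVr factor, 1020 and 982 with the hypoblast covariate, and 49 to 615 and 47 to 667 with a conceptus left out. Alternatives added after seeing the data gave 171 and 183 without the 2 sections highest in POU5F1, 305 and 286 with no filter under the replicate block, and 392 and 412 with that block and the hypoblast covariate together. Of the members, 1 was more abundant (FOXA2) with summed sections and with RUVr, and 1 less abundant (GATA6) with DESeq2. POU5F1 was reversed under the replicate block (0.26, also with no filter), with summed sections (0.70), DESeq2 (0.99), the hypoblast covariate (0.31; 0.33 under the block), the disc covariate (0.34) and without conceptus 26 (1.18; range with a conceptus left out -1.98 to 1.18); the cause was not tested. Between conceptuses, 1 to 3 members and 1539 to 3907 genes were called with a conceptus other than conceptus 5 left out (1 and 1539 without conceptus 47, 1 and 2214 without 71). In explants, 633 genes were less abundant with the uterus as a replicate block, 544 with DESeq2, 192 without uteri 38 and 69 (added after seeing the data) and 127 to 477 with a uterus left out, against 353. CUBN in explants had log2 fold changes from -0.23 to 0.01 with a uterus left out, the last without uterus 19. On raw totals in place of TMM, 15 section levels in place of 12 were at 4 times the median or more. NANOG, AFP and CUBN had fewer than 20 counts in most sections, with SEs of 1.44, 2.08 and 1.33 on the log2 fold change between cultures with no filter.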
